A study of Mus musculus with 8 samples.

Results

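The transcripts described here encode the nuclear subunits of the mitochondrial respiratory chain, complexes I to V, in NMuMG cells. Members were chosen by a rule on gene symbols from the 21240 genes of the count table. The rule reads no measured value, but it was set with earlier results of these data known. The rule took symbols that start with Ndufa, Ndufb, Ndufc, Ndufs or Ndufv and a digit, Sdha to Sdhd, symbols that start with Uqcr, Cox4 to Cox8, and symbols that start with Atp5, without pseudogenes. It found 83 genes: 37 of complex I, 4 of complex II, 8 of complex III, 18 of complex IV and 16 of complex V. Of these, 76 passed the filter on low counts and were tested. The other 7 (Ndufa4l2, Cox4i2, Cox6a2, Cox6b2, Cox7b2, Cox8b and Cox8c) had 0 to 7 counts per library. The names of 3 tested members follow an older or looser use. Ndufa4 is now often counted as a subunit of complex IV, Cox7a2l is a factor of respiratory supercomplexes, and Atp5s encodes factor B, which is not a core subunit of ATP synthase.

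NMuMG is an immortalized epithelial line from normal mouse mammary gland, here wild type in all groups and grown with serum and insulin. Cells received BRM014, a compound that blocks the ATPase motors BRM and BRG1 of SWI/SNF (BAF) chromatin remodelling complexes, or its solvent DMSO. The 4 groups were BRM014 for 30 h, DMSO for 30 h, BRM014 for 6 h and DMSO for 6 h, with 2 libraries each that the labels call biological replicates. The labels do not say whether these came from separate passages, so the p-values measure the spread between these libraries, and the dose of BRM014 is not given in the sources used here. The inhibitor acts on every cell of 1 line, and the labels name no SWI/SNF mutant as a second test of its target.

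Complex I takes electrons from NADH and complex II from succinate, complex III passes them from ubiquinol to cytochrome c, and complex IV passes them to oxygen. Complexes I, III and IV pump protons, and complex V, the ATP synthase, uses the gradient to make ATP. Except for complex II, which is built from nuclear genes alone, the complexes combine subunits from nuclear and mitochondrial DNA. Transcription of the nuclear genes is classically tied to the factors NRF1, GABP (an ETS-family factor) and YY1 and to PGC-1 coactivators. The genes encoded in mitochondrial DNA are not analysed here.

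Libraries held 17859693 to 29955366 counts, and the members took 1.27% to 1.67% of them. Levels are given as CPM, counts relative to the library total after correction with TMM factors, which align the bulk of genes between libraries. Of the epithelial markers, Krt8, Krt18 and Cdh1 were abundant, with summed levels of 4360 to 8000 CPM over the 6 markers, while Epcam, Cldn3 and Cldn7 were at 0 in all 8 libraries. Summed markers of fibroblasts (6 genes), endothelium (4), immune cells (5) and adipocytes (4) reached at most 2.77, 0.257, 0.217 and 0.0875 CPM. At 30 h, Krt8, Krt18 and Cdh1 were higher in BRM014 than in DMSO, by log2 fold changes of 0.67, 0.79 and 0.67, and their part in the results below was not tested. A pair of libraries stood apart for the members. DMSO 30 h replicate 1 was the highest of the 8 libraries for 55 of 76 members (72.4%, against 12.7% of all tested genes). BRM014 30 h replicate 2 was the lowest for 31 members (40.8%, against 14.2% of all tested genes). Counts or medians over sets of genes at 30 h are therefore also given without each of these libraries, where that changes them. The same holds for the calls of the genes described below. In bulk RNA, a smaller number of expressing cells and less RNA per cell cannot be told apart.

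Summed over all 83 members, the transcripts made up 13680 and 12790 CPM in BRM014 at 30 h, against 16390 and 15620 CPM in DMSO at 30 h. At 6 h the sums were 13420 and 13590 CPM in BRM014, against 13600 and 13130 CPM in DMSO. DMSO at 30 h was thus the high group, and the libraries of the other groups all lay between 12790 and 13680 CPM. The single complexes were less alike over time in BRM014. Complex V had 5451 and 5173 CPM at 30 h, against 5772 and 5819 CPM at 6 h. Complex II had 812.8 and 781 CPM at 30 h, against 814 and 861.2 CPM at 6 h. Complex IV was higher at 30 h, with 2422 and 2223 CPM, against 2216 and 2202 CPM at 6 h. In complexes I and III the BRM014 libraries of the times overlapped. All 5 complexes had both BRM014 libraries below both DMSO libraries at 30 h. Complex I summed to 3640 and 3379 CPM in BRM014, against 4262 and 3974 CPM in DMSO. Complex II summed to 812.8 and 781 CPM in BRM014, against 1021 and 1016 CPM in DMSO. Complex III gave 1349 and 1239 CPM in BRM014, against 1557 and 1452 CPM in DMSO. These sums weight each gene by its abundance and were not tested. Complex IV gave 2422 and 2223 CPM in BRM014, against 2913 and 2708 CPM in DMSO. Complex V gave 5451 and 5173 CPM in BRM014, against 6636 and 6472 CPM in DMSO. The log2 ratios of the means were -0.23, -0.35, -0.22, -0.28 and -0.30 for complexes I to V (SD of 0.03 to 0.08, from 2 libraries a group), and complex II was the lowest of them. They were -0.17, -0.34, -0.16, -0.21 and -0.28 without DMSO 30 h replicate 1, and -0.18, -0.33, -0.16, -0.22 and -0.27 without BRM014 30 h replicate 2.

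**Figure D1:**
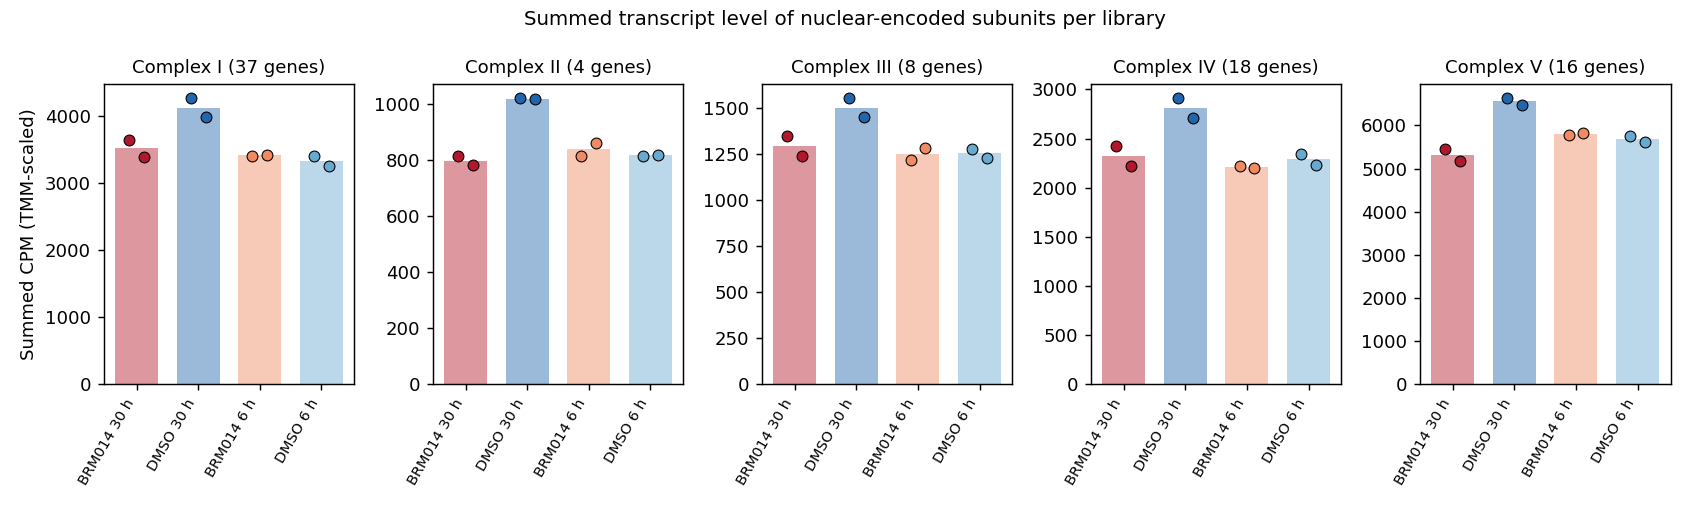
Summed CPM (TMM-scaled) of the nuclear-encoded subunits of each complex, with a bar for the mean of each group and a point for each of its 2 libraries. DMSO at 30 h is the highest group in all 5 panels, and BRM014 at 30 h lies below it (complex V at 5451 and 5173 CPM against 6636 and 6472 CPM).

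Whether the inhibitor changed single subunits was tested with edgeR's quasi-likelihood test on all 11835 tested genes, with Benjamini-Hochberg adjustment and a threshold of 0.05, and every adjusted p below is of this kind. At 30 h, 37 of the 76 tested members fell in BRM014 (48.7%), while 19.1% of all tested genes were called lower. Just 1 member, Atp5s, rose, while 16.8% of all tested genes were called higher, and 38 members did not pass. The median log2 fold change of the members was -0.28, beside -0.005 for all tested genes, and 64 of 76 values were negative. Both BRM014 libraries lay below both DMSO libraries for 58 of 76 members (background 33.9%) and above them for 3 (background 32.9%). The count rested on a few libraries: 14 members fell without BRM014 30 h replicate 2 (18.4%, against 13.9% of all tested genes) and 18 without DMSO 30 h replicate 1 (23.7%, against 16.3%). The median was -0.20 without BRM014 30 h replicate 2 and -0.23 without DMSO 30 h replicate 1. When libraries were scaled to the cytosolic ribosomal protein genes, the median of all genes moved by 0.175 on the log2 scale. With that scaling 4 members fell and 6 rose, with a median of -0.10, which is -0.27 relative to the shifted median of all genes. Of all 11835 tested genes, 1298 fell and 3081 rose with it, and both are larger shares than those of the members. Changes below are relative to the bulk of all genes (TMM).

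Each complex had members that fell, on the TMM scale and with all 8 libraries. Beside the counts given here and those of subgroups below, 19.1% of all tested genes were called lower. In complex I, 16 of 36 tested members fell (44.4%, median -0.24), and in complex II 3 of 4 (75%, median -0.41). In complex III, 3 of 8 fell (37.5%, median -0.20), in complex IV 6 of 12 (50%, median -0.28), and in complex V 9 of 16 (56.2%, median -0.29). Sizes were small, with log2 fold changes between -0.61 and -0.26 for the members that fell. Without DMSO 30 h replicate 1 the medians of complexes I to V were -0.20, -0.37, -0.15, -0.22 and -0.26. Without BRM014 30 h replicate 2 they were -0.19, -0.38, -0.17, -0.205 and -0.22. Fewer members of complexes I, III, IV and V were called without either library, and none of complex III without BRM014 30 h replicate 2. Under ribosomal protein scaling 3 members of complex I and 1 of complex II fell and none of complexes III to V. With it 2 rose in complex I, 1 in III, 1 in IV and 2 in V. Beside these counts, 1298 of all 11835 tested genes fell and 3081 rose. Whether the complexes differ from each other was not tested.

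**Figure D2:**
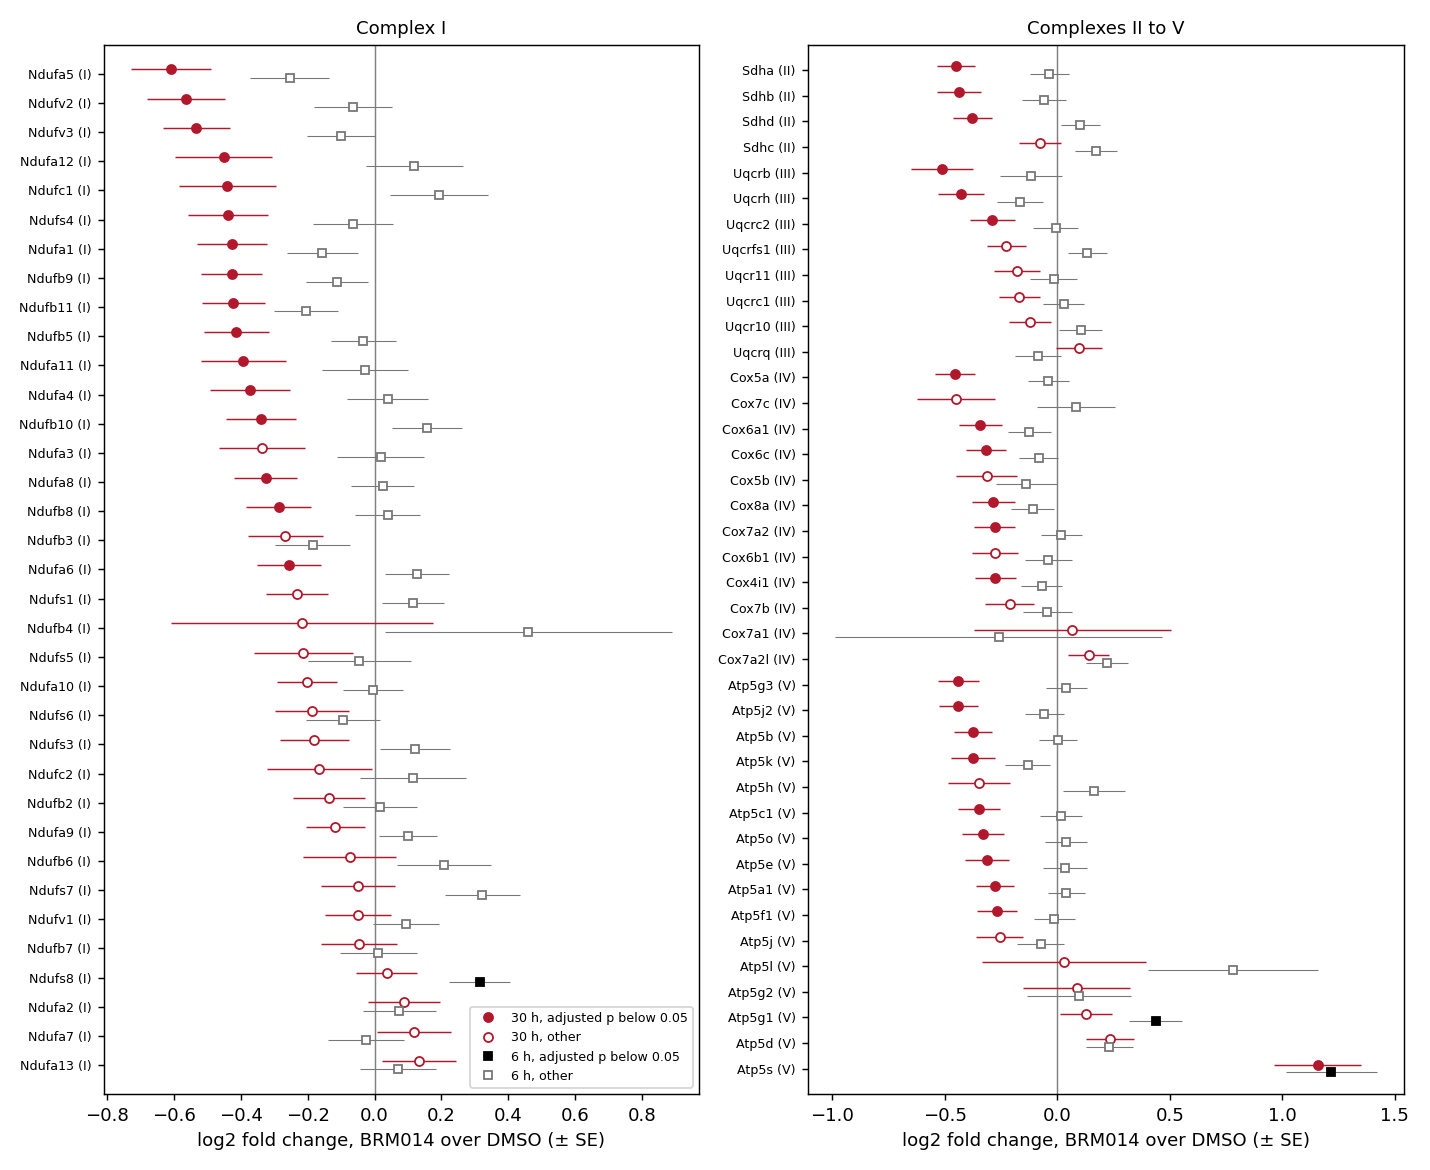
Log2 fold change of 75 of the 76 tested members, BRM014 over DMSO, with its standard error, at 30 h (circles) and 6 h (squares), with complex I in one panel and complexes II to V in the other. Filled symbols have an adjusted p below 0.05. At 30 h, 37 members are filled on the negative side and Atp5s (1.16) on the positive side, on the TMM scale. With scaling to ribosomal protein genes 4 members fell and 6 rose, beside 1298 and 3081 of all 11835 tested genes.

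Complex I has a conserved core of catalytic subunits and a shell of supernumerary subunits that serve assembly and stability. Of the 7 nuclear core subunits in the table, 1 fell at 30 h, and of the 28 supernumerary subunits 14 fell, which was not tested as a difference. Without DMSO 30 h replicate 1 the counts were 2 core and 5 supernumerary subunits, without BRM014 30 h replicate 2 they were 1 and 6, and under ribosomal protein scaling 1 and 2, where the core median turned positive (0.06, against -0.11 with TMM). The core subunit that fell was Ndufv2, an iron-sulfur protein of the NADH-binding module. It was at 122 and 93.1 CPM in BRM014 at 30 h, against 164 and 153 CPM in DMSO at 30 h, a log2 fold change of -0.56 ± 0.12 (SE, adjusted p 0.0021). The groups did not overlap, although the BRM014 libraries were further apart than the DMSO ones. Of the others, Ndufv1, Ndufs1, Ndufs3, Ndufs7 and Ndufs8 did not pass at 30 h. Ndufv1, which binds NADH and the flavin, was at 195 and 213 CPM in BRM014 and 220.1 and 201 CPM in DMSO (-0.05 ± 0.10). Ndufs1, an iron-sulfur protein of the same arm, had 201 and 206 CPM in BRM014 and 225 and 253 CPM in DMSO (-0.23 ± 0.09, adjusted p 0.0674). Ndufs3, Ndufs7 and Ndufs8 belong to the ubiquinone-binding part of the arm. Their log2 fold changes were -0.18 ± 0.10 for Ndufs3, -0.05 ± 0.11 for Ndufs7 and 0.04 ± 0.09 for Ndufs8.

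Among the supernumerary subunits, Ndufv3 changed most clearly. Ndufv3, a small subunit bound to the NADH-binding module, was at 60.5 and 60.4 CPM in BRM014 at 30 h, against 85.5 and 89.3 CPM in DMSO at 30 h. At 6 h it was at 48.3 and 46.7 CPM in BRM014, against 54.2 and 47.6 CPM in DMSO. Its level was thus highest in DMSO at 30 h, and BRM014 at 30 h lay between DMSO at 30 h and the 6 h groups. The log2 fold change at 30 h was -0.53 ± 0.10 (adjusted p 0.00105). Ndufa5, a subunit of the matrix arm, was at 46.3 and 36.6 CPM in BRM014, against 63.6 and 62.3 CPM in DMSO (-0.61 ± 0.12, adjusted p 0.00146). Ndufb9, a subunit of the membrane arm, was at 131 and 125 CPM in BRM014, against 178 and 166 CPM in DMSO (-0.43 ± 0.09, adjusted p 0.0027). These genes kept their calls with any 1 library left out, as did Ndufb5 and Ndufb11, and Ndufv2, Ndufv3 and Ndufa5 also kept them under ribosomal protein scaling, where Ndufb9 did not (-0.25, adjusted p 0.0631). At the other end, Ndufa2, Ndufa7 and Ndufa13 had positive values at 30 h (0.09, 0.12 and 0.13) and did not pass.

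Complex II is the succinate dehydrogenase of the citric acid cycle. Sdha, its flavoprotein, had 303 and 298 CPM in BRM014 at 30 h, against 407 and 414 CPM in DMSO at 30 h (-0.45 ± 0.09, adjusted p 0.00114). Sdhb, its iron-sulfur subunit, had 96.8 and 94.6 CPM in BRM014, against 133 and 126 CPM in DMSO (-0.44 ± 0.10, adjusted p 0.00397). Replicates were close and the groups lay well apart for both. Sdhd, a membrane anchor that helps bind ubiquinone, had 235 and 221 CPM in BRM014, against 298 and 294 CPM in DMSO (-0.38 ± 0.09, adjusted p 0.00441). Sdhc, the other membrane anchor, had 178 and 167 CPM in BRM014, against 183 and 182 CPM in DMSO, and did not pass (-0.08 ± 0.09, adjusted p 0.547). Sdha, Sdhb and Sdhd kept their calls with any 1 library left out, and of these Sdha alone kept it under ribosomal protein scaling (-0.28, adjusted p 0.048). Complex II thus had 3 subunits that fell and 1 whose libraries lay close to those of DMSO.

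In complex III, the subunits that fell were Uqcrh, Uqcrb and Uqcrc2. Uqcrh, the hinge protein at cytochrome c1, had 174 and 155 CPM in BRM014 at 30 h, against 224 and 219 CPM in DMSO at 30 h (-0.43 ± 0.10, adjusted p 0.00544). Uqcrb, a ubiquinone-binding subunit, had 80.2 and 56 CPM in BRM014, against 98.7 and 95 CPM in DMSO (-0.51 ± 0.14, adjusted p 0.0109). Both lost their calls without BRM014 30 h replicate 2, the lower library (adjusted p 0.0608 for Uqcrh and 0.117 for Uqcrb). Uqcrc2, a core protein, had 233 and 195 CPM in BRM014, against 264 and 259 CPM in DMSO (-0.29 ± 0.10, adjusted p 0.0378). Its call was lost without any 1 of 7 of the 8 libraries (adjusted p 0.0509 to 0.29, the last without BRM014 30 h replicate 2). The Rieske iron-sulfur protein Uqcrfs1 had 192 and 181 CPM in BRM014 and 218 CPM in both DMSO libraries, and did not pass (-0.23 ± 0.09, adjusted p 0.0585). Nor did the second core protein, Uqcrc1 (-0.17 ± 0.09). Uqcrq, a small subunit, had the one positive value of the complex (0.10 ± 0.10).

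Complex IV, cytochrome c oxidase, has nuclear subunits with widely expressed and tissue-restricted isoforms. Of 10 widely expressed subunits, 6 fell at 30 h and all 10 values were negative. Without either of the libraries that stood apart 1 of the 10 fell, and under ribosomal protein scaling none did. Cox5a, an early-assembling regulatory subunit, had 234 and 215 CPM in BRM014 at 30 h, against 311 and 304 CPM in DMSO at 30 h (-0.45 ± 0.09, adjusted p 0.00162), a call that held whichever library was omitted and was lost under ribosomal protein scaling (-0.28, adjusted p 0.0531). The others that fell were closer to the threshold. Cox6c had 173 and 164 CPM in BRM014, against 218 and 202 CPM in DMSO (-0.32 ± 0.09, adjusted p 0.0126). Cox6a1 had 239 and 219 CPM in BRM014, against 303 and 278 CPM in DMSO (-0.34 ± 0.10, adjusted p 0.0138). For each of these 2 genes the groups did not overlap, yet the calls were lost without BRM014 30 h replicate 2 (adjusted p 0.0803 and 0.105) or DMSO 30 h replicate 1 (0.0821 and 0.0887). Cox4i1 had 390.1 and 401 CPM in BRM014, against 509 and 449 CPM in DMSO (-0.28 ± 0.09, adjusted p 0.0311). Cox7a2 gave -0.28 ± 0.09 (adjusted p 0.0275) and Cox8a -0.28 ± 0.10 (adjusted p 0.0331). Calls of these 3 genes were lost when single libraries of more than 1 group were left out, with the adjusted p reaching 0.243 for Cox4i1 without DMSO 30 h replicate 1, 0.183 for Cox7a2 without BRM014 30 h replicate 2, and 0.212 for Cox8a without DMSO 30 h replicate 1.

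Isoforms known from other tissues were close to absent. Cox4i2 of lung and of hypoxic cells, Cox6a2 and Cox8b of heart and muscle, and Cox6b2, Cox7b2 and Cox8c, all best known from testis, reached at most 7 counts in a library. Cox8b and Cox8c had no count in any library. Their partners Cox4i1, Cox6a1, Cox6b1, Cox7b and Cox8a were at 187 to 520.4 CPM, so the widely expressed isoform was the abundant one of each pair in all 4 groups. Cox6b1 (-0.28 ± 0.10, adjusted p 0.0522) and Cox7b (-0.21 ± 0.11) did not pass at 30 h. Cox7a1, the muscle and brown fat isoform, was low but rose over time. It had 1.18 and 1.34 CPM in BRM014 and 1.14 and 1.27 CPM in DMSO at 30 h, and 0.308 and 0.213 CPM in BRM014 and 0.102 and 0.52 CPM in DMSO at 6 h. The 30 h libraries lay above the 6 h libraries in both treatments, while its BRM014 over DMSO values at 30 h (0.07 ± 0.44) and 6 h (-0.26 ± 0.73) did not pass. Its time call in DMSO (1.95 ± 0.56, adjusted p 0.0174) was lost without DMSO 30 h replicate 2 (0.0545) or DMSO 6 h replicate 1 (0.144). Its time call in BRM014 (2.27 ± 0.56, adjusted p 0.00678) was lost without BRM014 6 h replicate 2 (0.0651). Cox7a2l, the supercomplex factor, had 162 and 171 CPM in BRM014 and 155 and 148 CPM in DMSO at 30 h, and did not pass (0.14 ± 0.09). Ndufa4 had 308 and 237 CPM in BRM014, against 366 and 339 CPM in DMSO (-0.37 ± 0.12, adjusted p 0.0272), and its paralog Ndufa4l2 was at or near 0. The Ndufa4 call was lost without BRM014 30 h replicate 2 (0.263) or DMSO 30 h replicate 1 (0.113).

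ATP synthase consists of a catalytic F1 head, a membrane c ring, a peripheral stalk and membrane accessory subunits. Of the 5 F1 subunits, 4 fell at 30 h. Leaving out DMSO 30 h replicate 1 left 2 of these calls, leaving out BRM014 30 h replicate 2 left 1, and ribosomal protein scaling left none. Atp5b, the catalytic beta subunit, was the most abundant member, with 2040 and 1911 CPM in BRM014 at 30 h, against 2581 and 2543 CPM in DMSO at 30 h (-0.38 ± 0.08, adjusted p 0.0035). Atp5a1, the alpha subunit, had 1065 and 1094 CPM in BRM014, against 1301 and 1314 CPM in DMSO (-0.28 ± 0.08, adjusted p 0.0197). Atp5c1, the gamma subunit of the rotor, had 309 and 272 CPM in BRM014, against 377 and 362 CPM in DMSO (-0.35 ± 0.09, adjusted p 0.0101). Atp5e, the epsilon subunit, had 133 and 128 CPM in BRM014, against 167 and 156 CPM in DMSO (-0.31 ± 0.10, adjusted p 0.0213). In each of these 4 genes both BRM014 libraries were below both DMSO libraries. Atp5b stayed called whichever library was omitted, and lost its call under ribosomal protein scaling (-0.20, adjusted p 0.0822). The call of Atp5c1 was lost without BRM014 30 h replicate 2 (adjusted p 0.0964), and that of Atp5e without DMSO 30 h replicate 1 (0.112), BRM014 30 h replicate 1 (0.0571) or replicate 2 (0.108). The call of Atp5a1 was lost without any 1 of the 30 h libraries or of the BRM014 6 h libraries (0.0501 to 0.0887). The delta subunit of the head, Atp5d, went the other way, with 357 and 389.8 CPM in BRM014 and 334 and 302 CPM in DMSO, and did not pass (0.23 ± 0.11, adjusted p 0.103). It was called higher under ribosomal protein scaling (0.41, adjusted p 0.0117).

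The c ring subunit has 3 genes that encode an identical mature protein, and their transcripts were unequal. Atp5g3 was the main one, with 392 and 363 CPM in BRM014 at 30 h, against 525 and 499 CPM in DMSO at 30 h (-0.44 ± 0.09, adjusted p 0.00222), and it stayed called whichever library was omitted but not under ribosomal protein scaling (adjusted p 0.0632). Atp5g1 had 56.9 and 49.1 CPM in BRM014 and 52.5 and 44.4 CPM in DMSO at 30 h, with overlapping groups (0.13 ± 0.12). Atp5g2 had 3.05 and 3.39 CPM in BRM014 and 3.32 and 2.8 CPM in DMSO (0.09 ± 0.24). Levels of Atp5g1 and Atp5g2 are uncertain, since 56.2% and 100% of their windows of 50 bases, the read length, also occur in transcripts of other annotated genes, and none of those of Atp5g3 do. Atp5j2, a membrane accessory subunit, had 158 and 153 CPM in BRM014, against 215 and 205 CPM in DMSO (-0.44 ± 0.09, adjusted p 0.00145), and stayed called whichever library was omitted but not under ribosomal protein scaling (adjusted p 0.0557). Of the 3 membrane accessory subunits, 2 fell, and 1 without BRM014 30 h replicate 2. In the peripheral stalk 2 of 4 subunits fell, Atp5o (-0.33 ± 0.09) and Atp5f1 (-0.27 ± 0.09). Both calls were lost without BRM014 30 h replicate 2 (adjusted p 0.11 and 0.221) or DMSO 30 h replicate 1 (0.0685 and 0.108), and that of Atp5f1 also without DMSO 30 h replicate 2 (0.0679) or either BRM014 6 h library (0.0653 and 0.0654).

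Atp5s was the exception. It was at 13.4 and 10.8 CPM in BRM014 at 30 h, against 5.33 and 5.47 CPM in DMSO at 30 h. At 6 h it was at 10.1 and 8.82 CPM in BRM014, against 3.71 and 4.42 CPM in DMSO. All 4 BRM014 libraries lay above all 4 DMSO libraries. At 30 h the log2 fold change was 1.16 ± 0.19, with an edgeR adjusted p of 0.000424. The value after 6 h was 1.22 ± 0.20, with an edgeR adjusted p of 0.000662. Both calls held in all alternatives tried. The effects at 30 h and 6 h differed by -0.06 ± 0.28 (adjusted p 0.934).

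**Figure D3:**
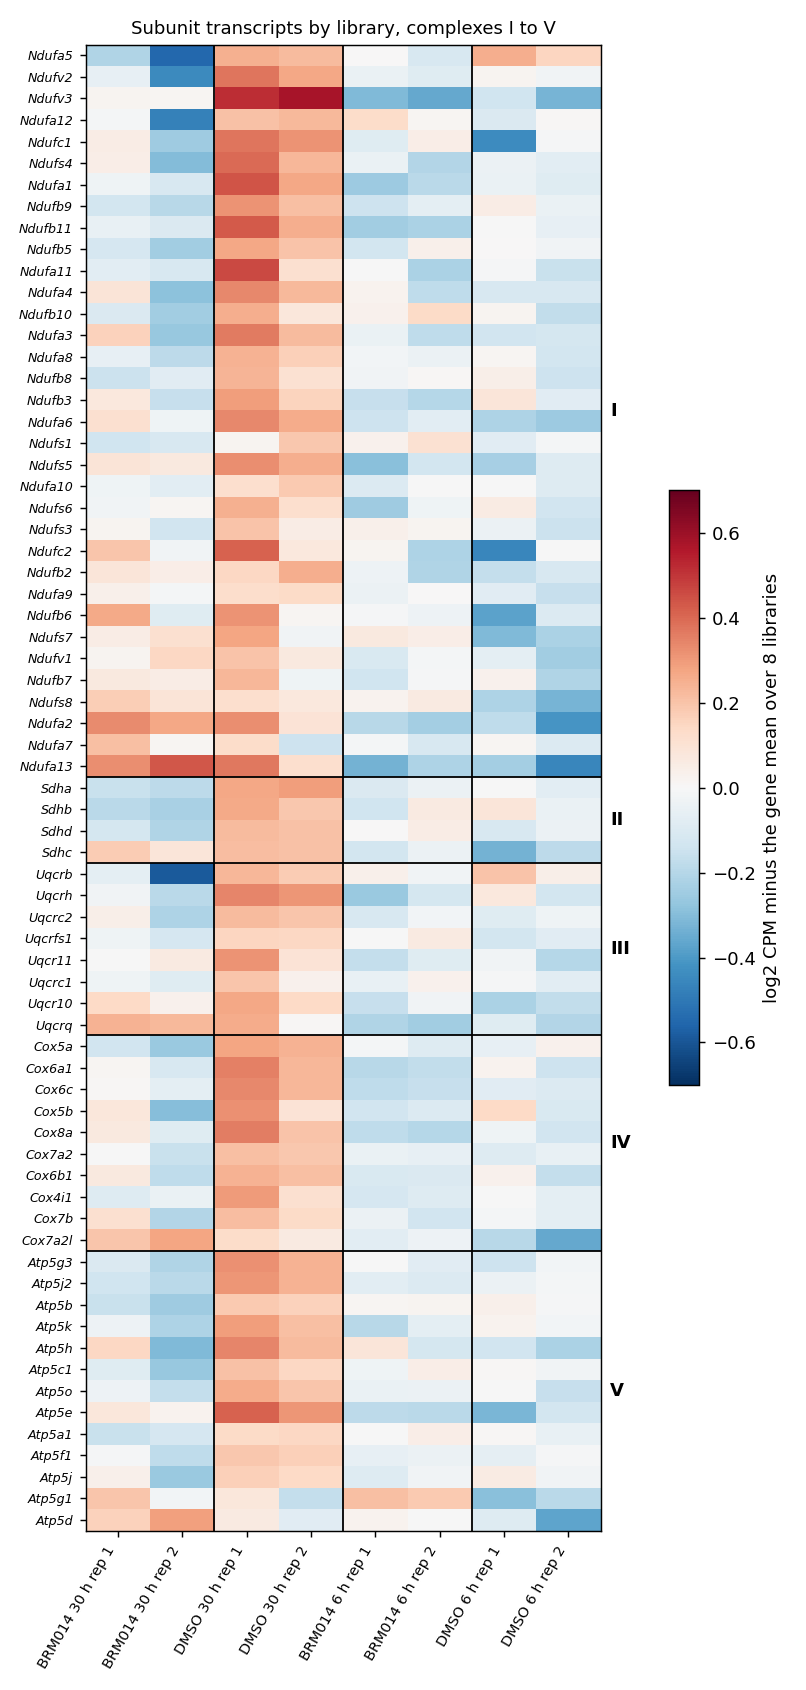
Log2 CPM of each member in each of the 8 libraries, as the difference from the gene's mean over the libraries, for 69 tested members with a mean of at least 10 CPM, in rows by complex. The DMSO 30 h columns are mostly positive, most of all replicate 1, and BRM014 30 h replicate 2 holds the lowest values (down to -0.59).

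After 6 h, no member fell in BRM014 and 3 rose, while 14.4% of all tested genes were called lower and 9.35% higher. No member was lower at an unadjusted p below 0.05 either, and 6 were higher. DESeq2 called 0 lower and 4 higher and limma-voom 0 lower and 3 higher. For these and the unadjusted counts, the shares of all tested genes are not given here. The median log2 fold change of the members was 0.02, beside -0.01 for all genes. Both BRM014 libraries lay below both DMSO libraries for 14 members (background 34.4%) and above them for 21 (background 30.8%). Without either BRM014 6 h library, 1 member rose. Apart from Atp5s, the members that rose were Atp5g1 and Ndufs8. Atp5g1 had 57.6 and 56.5 CPM in BRM014 at 6 h, against 40.7 and 43.6 CPM in DMSO at 6 h (0.44 ± 0.12, adjusted p 0.0152). Ndufs8, an iron-sulfur core subunit of complex I, had 119.8 and 123 CPM in BRM014, against 101 and 93.7 CPM in DMSO (0.32 ± 0.09, adjusted p 0.0222). The libraries did not overlap for either gene, but single libraries decided the calls. That of Atp5g1 was lost without BRM014 6 h replicate 1 (0.0743), BRM014 6 h replicate 2 (0.0624) or DMSO 6 h replicate 1 (0.109). That of Ndufs8 was lost without BRM014 6 h replicate 1 (0.0742), BRM014 6 h replicate 2 (0.11) or DMSO 6 h replicate 2 (0.144).

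A gene that fell at 30 h and not at 6 h is not thereby shown to respond differently at the 2 times. The difference of the effects, 30 h minus 6 h, had a member median of -0.28, beside 0.01 for all genes, and 70 of 76 values were negative. It passed the test for 2 members (2.63%), Sdhd and Atp5g3, both more negative at 30 h. Of all tested genes, 2.59% were called in this direction, a share near that of the members, and 3.89% in the other (6.47% in all). No member passed without DMSO 6 h replicate 1, DMSO 30 h replicate 1, BRM014 30 h replicate 2 or either BRM014 6 h library, 1 passed without DMSO 6 h replicate 2, and 7 passed without BRM014 30 h replicate 1. At an unadjusted p below 0.05 there were 30 members with a negative difference and 0 with a positive one, and DESeq2 called 6 and 0 and limma-voom 2 and 0. Shares of all tested genes by these measures are not given here, so these counts cannot be set against a background. Sdhd had 235 and 221 CPM in BRM014 and 298 and 294 CPM in DMSO at 30 h, and 255 and 265 CPM in BRM014 and 236 and 248 CPM in DMSO at 6 h. Atp5g3 had 392 and 363 CPM in BRM014 and 525 and 499 CPM in DMSO at 30 h, and 421 and 398 CPM in BRM014 and 381 and 415 CPM in DMSO at 6 h. In both genes the BRM014 libraries were the lower ones at 30 h and lay near or above the DMSO ones at 6 h. The difference was -0.48 ± 0.12 for Sdhd (adjusted p 0.0345) and -0.48 ± 0.13 for Atp5g3 (adjusted p 0.0417). Each call was lost without any 1 of 6 libraries, all but BRM014 30 h replicate 1 and DMSO 30 h replicate 2, with adjusted p of 0.0596 to 0.131 for Sdhd and 0.0556 to 0.175 for Atp5g3. Cyc1, cytochrome c1 of complex III, which the symbol rule does not take, had a difference of -0.51 ± 0.12 (adjusted p 0.0239), which was lost without any 1 of 6 libraries (0.0542 to 0.109).

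The comparison of 30 h with 6 h in DMSO shows how the members moved in culture without inhibitor, and it shares the DMSO 30 h libraries with the comparison above, so the values are set side by side only. In DMSO, 44 of 76 members rose over time, while 18% of all tested genes were called higher. No member fell, while 17.2% of all tested genes were called lower, and none did at an unadjusted p below 0.05, by DESeq2 or by limma-voom. The median log2 fold change was 0.29, beside 0.01 for all genes. In BRM014, 6 members rose over time, while 19.6% of all tested genes were called higher and 16.9% lower, and the median was 0.02, beside 0.01 for all genes. No member was called lower in BRM014, 5 were lower at an unadjusted p below 0.05, and DESeq2 called 1 and limma-voom 2. The shares of all tested genes by these other measures are not given here. Without BRM014 6 h replicate 2, 3 members rose in BRM014, and without BRM014 30 h replicate 1, 4 rose and 4 fell. Under ribosomal protein scaling, which moved the median of all genes by 0.22 in this comparison, 28 members rose in BRM014, with a median of 0.23 that is near 0 (0.004) relative to all genes. The median in DMSO was 0.25 without DMSO 30 h replicate 1, 0.31 without DMSO 6 h replicate 1 and 0.275 without DMSO 6 h replicate 2. Far fewer than 44 members were called in each of these fits. The shares of all tested genes in them are not given here, so a count above the background rests on all DMSO libraries.

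The members with the smallest p for time in DMSO were Ndufv3, Atp5e, Ndufa6, Ndufa13, Sdhc and Ndufa2. Each kept its call in all alternatives tried. Ndufv3 rose by 0.78 ± 0.10 on the log2 scale in DMSO (adjusted p 0.000133) and had 0.35 ± 0.10 in BRM014 (adjusted p 0.0161). The BRM014 value of Ndufv3 lost its call without any 1 of the BRM014 libraries (0.0531 to 0.117). Atp5e had 167 and 156 CPM in DMSO at 30 h, against 101 and 115 CPM in DMSO at 6 h (0.58 ± 0.10, adjusted p 0.000647), and 0.24 ± 0.10 in BRM014 (adjusted p 0.07). Ndufa6, a subunit of the matrix arm of complex I, had 104 and 98.6 CPM in DMSO at 30 h, against 71 and 68.9 CPM in DMSO at 6 h (0.53 ± 0.10, adjusted p 0.00111), and 0.15 ± 0.10 in BRM014. Sdhc had 183 and 182 CPM in DMSO at 30 h, against 125 and 139 CPM in DMSO at 6 h (0.47 ± 0.09, adjusted p 0.00217), and 0.22 ± 0.09 in BRM014 (adjusted p 0.083). The other 2 rose in both treatments. Ndufa13, also known as Grim19, had 119 and 100.3 CPM at 30 h and 78.2 and 67.3 CPM at 6 h in DMSO (0.59 ± 0.11, adjusted p 0.00163), and 116 and 125 CPM at 30 h and 73.3 and 79.3 CPM at 6 h in BRM014 (0.66 ± 0.11, adjusted p 0.00074). Ndufa2 rose by 0.50 ± 0.11 in DMSO (adjusted p 0.00361) and by 0.52 ± 0.11 in BRM014 (adjusted p 0.00276). Ndufa13, Ndufa2 and Uqcrq (0.46 ± 0.10 in BRM014, adjusted p 0.00346) kept their BRM014 calls with any 1 library left out. Cox7a2l did not (0.29 ± 0.09, adjusted p 0.0262), since its call was lost without any 1 of the BRM014 libraries (0.0527 to 0.158). Counts of Ndufa13 include a part where 30.0% of its exon bases overlap Tssk6 on the other strand.

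Genes that assemble or serve the complexes were read from lists. Of 47 assembly factors, 7 fell (14.9%) and 4 rose (8.51%) at 30 h, with a median of 0.005. Both shares were under those of all tested genes (19.1% lower, 16.8% higher). Without BRM014 30 h replicate 2, 3 fell and 3 rose, and without DMSO 30 h replicate 1, 4 fell and 4 rose. Under ribosomal protein scaling 2 fell and 11 rose. Of all 11835 tested genes, 1298 fell and 3081 rose with that scaling, and both are larger shares than those of the assembly factors. Uqcc3, an assembly factor of complex III, had 21.2 and 21.4 CPM in BRM014 at 30 h, against 48.7 and 45.5 CPM in DMSO at 30 h (-1.14 ± 0.12, adjusted p 1.23e-05). Ndufaf7, a methyltransferase that modifies complex I during assembly, had 72.3 and 65 CPM in BRM014, against 47.7 and 42.4 CPM in DMSO (0.61 ± 0.11, adjusted p 0.000623). Cox14 and Coa3, which act in the early assembly of complex IV, fell by 0.53 ± 0.11 (adjusted p 0.00207) and fell by 0.44 ± 0.10 (adjusted p 0.00326). Fmc1, linked to assembly of complex V in yeast, fell (-0.70 ± 0.17, adjusted p 0.0053, and 0.0647 without BRM014 30 h replicate 2), while Atpaf1 did not pass (-0.41, adjusted p 0.211). Lyrm7, a chaperone of the Rieske protein, was low and rose, with 2.09 and 1.11 CPM in BRM014, against 0.435 and 0.306 CPM in DMSO (2.06 ± 0.54, adjusted p 0.00875, and 0.0635 without BRM014 30 h replicate 1 or 0.057 without DMSO 30 h replicate 2). Foxred1, an assembly factor of complex I, fell (-0.33, adjusted p 0.0323, and 0.0551 to 0.188 without any 1 of 4 libraries: DMSO 30 h replicate 1, BRM014 30 h replicate 2 and the BRM014 6 h pair). Of the complex II factors, Sdhaf1 (0.37, adjusted p 0.0811) and Sdhaf4 (-0.07, adjusted p 0.789) did not pass. Of 8 respiratory proteins that the symbol rule does not take, 3 fell (37.5%, against 19.1% of all tested genes). These were Atpif1, the inhibitor of the ATP synthase (-0.61 ± 0.10), Etfa, which carries electrons from fatty acid oxidation (-0.58 ± 0.10), and Cyc1 (-0.34 ± 0.09). Of 15 enzymes of the citric acid cycle and its entry, 4 fell (26.7%) and none rose, beside 19.1% and 16.8% of all tested genes. Among those that fell were Pdhb of pyruvate dehydrogenase (-0.56 ± 0.10) and Idh3g (-0.50 ± 0.09). In DMSO over time, 14 of 47 assembly factors rose (29.8%) and 2 fell (4.26%), beside 18% and 17.2% of all tested genes. Of the cycle enzymes 3 of 15 rose (20%), a share near that of all tested genes. Of 85 cytosolic ribosomal protein genes, 6 fell at 30 h (7.06%) and none rose (median -0.14), beside 19.1% and 16.8% of all tested genes. Over time in DMSO 2 rose (2.35%) and 20 fell (23.5%), beside 18% and 17.2%.

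**Figure D4:**
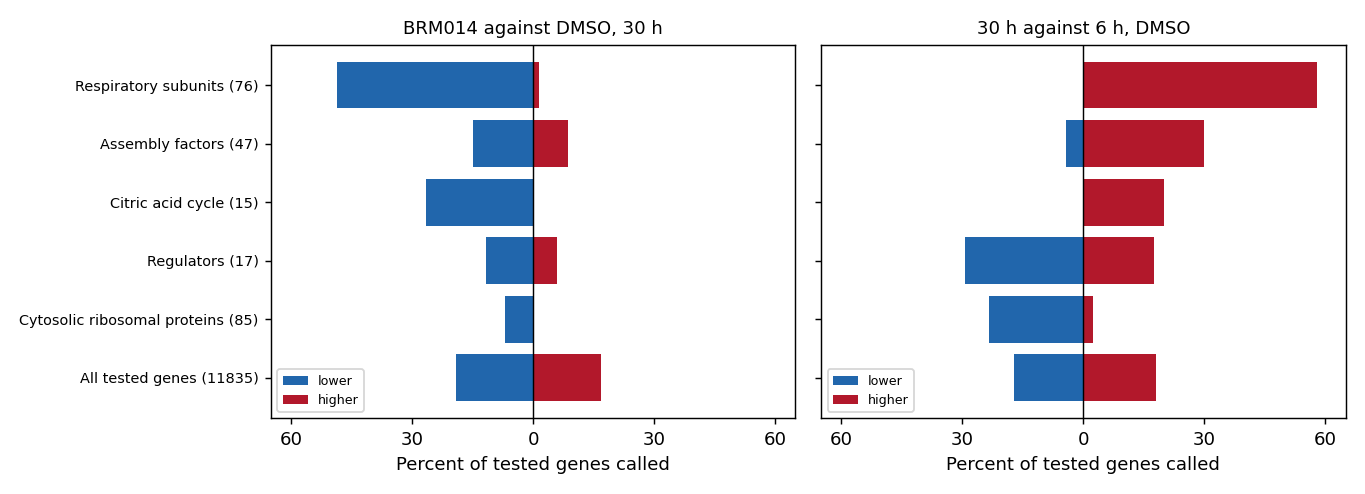
Percent of tested genes called lower (left of 0) and higher (right of 0) in each list, for BRM014 against DMSO at 30 h and for 30 h against 6 h in DMSO, with the number of tested genes in brackets. The subunits have 48.7% lower at 30 h and 57.9% higher over time, against 19.1% and 18% of all tested genes, on the TMM scale. With scaling to ribosomal protein genes 4 of 76 members fell and 6 rose at 30 h, beside 1298 and 3081 of all 11835 tested genes.

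Of 17 tested regulators of respiratory genes and of mitochondrial transcription, 2 fell (11.8%) and 1 rose (5.88%) at 30 h, both shares under those of all tested genes (19.1% and 16.8%). Without DMSO 30 h replicate 1, 4 fell. Ppargc1a, which encodes the coactivator PGC-1alpha, had 6.15 and 6.03 CPM in BRM014 at 30 h, against 11.2 and 24.2 CPM in DMSO at 30 h (-1.55 ± 0.29, adjusted p 0.00105). At 6 h it had 3.28 and 4.39 CPM in BRM014, against 9.05 and 11.3 CPM in DMSO (-1.40 ± 0.31, adjusted p 0.00559). Both BRM014 libraries lay below both DMSO libraries at each time, at levels far under those of most members, and the DMSO 30 h libraries were wide apart. The 6 h call was lost without DMSO 6 h replicate 2 (0.051) or BRM014 6 h replicate 1 (0.0619). Polg, the mitochondrial DNA polymerase, fell by 0.89 ± 0.09 at 30 h (adjusted p 7.88e-06), and Myc rose by 0.65 ± 0.17 (adjusted p 0.00843), a call lost without DMSO 30 h replicate 2 (0.0567) or BRM014 30 h replicate 1 (0.0505). Nrf1 (-0.25 ± 0.10, adjusted p 0.0593), Gabpa (-0.25 ± 0.11), Yy1 (0.02 ± 0.09) and Tfam (0.01 ± 0.09), genes of the classical regulators, did not pass at 30 h. Esrra, which encodes ERR alpha, fell by 0.48 ± 0.11 at 6 h (adjusted p 0.00466, and 0.0894 without BRM014 6 h replicate 1) and had -0.09 ± 0.10 at 30 h. Of these regulators all but Ppargc1a and Polg were named after their values were seen.

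Since members moved together, their promoters were searched for motifs of these factors in RefSeq windows of 250 bases before to 50 bases after the start (GRCm38.p6), which 68 members had, with 73 windows. Both strands were read, and a match is a description of letters, not of a bound site. The NRF1 motif, GCGC, then any base, then TGCGC, was in 24.7% of member windows, against 10.3% of windows of all tested genes and 4.6% of all windows. The YY1 motif AANATGGC was in 23.3%, against 8.55% and 6.05%. The ETS motif CCGGAAG was in 21.9%, against 18% and 8.86%. Of tested members with the NRF1 motif, 11 of 17 fell at 30 h (median -0.34), and of those without it 20 of 48 (median -0.27), a difference that was not tested. For the YY1 motif the counts were 9 of 17 with it and 22 of 48 without it, and for the ETS motif 7 of 16 and 24 of 49. The letters CCAAT and TATAAA were searched too. They were in 42.5% and 11% of member windows, against 38.1% and 7.14% of windows of all tested genes. With CCAAT 13 of 28 fell at 30 h and without it 18 of 37. For TATAAA the counts were 0 of 5 and 31 of 60, which was not tested as a difference. With the NRF1 motif 6 of 17 fell without DMSO 30 h replicate 1 and 4 of 17 without BRM014 30 h replicate 2, and of those without the motif 9 of 48 fell in either case. For YY1 these counts were 4 of 17 and 11 of 48, then 4 of 17 and 9 of 48, and for ETS 4 of 16 and 11 of 49, then 2 of 16 and 11 of 49. No matches to the NRF1, ETS and YY1 motifs overlap in the windows shown here. They are those of Sdhd (chr9:50603800-50604099) and Atp5g3 (chr2:73911277-73911576), whose difference between the times was called with all 8 libraries. Both calls depended on single libraries and were lost under ribosomal protein scaling. The other windows are those of Sdha (chr13:74350191-74350490), which fell at 30 h in all alternatives, and of Atp5s (chr12:69724695-69724994, plus strand), which rose. The windows of Sdhd, Atp5g3 and Sdha are on the minus strand. Each is printed 5′ to 3′ on the strand of the gene. Capitals mark matches to the NRF1, ETS or YY1 motif.
Sdhd: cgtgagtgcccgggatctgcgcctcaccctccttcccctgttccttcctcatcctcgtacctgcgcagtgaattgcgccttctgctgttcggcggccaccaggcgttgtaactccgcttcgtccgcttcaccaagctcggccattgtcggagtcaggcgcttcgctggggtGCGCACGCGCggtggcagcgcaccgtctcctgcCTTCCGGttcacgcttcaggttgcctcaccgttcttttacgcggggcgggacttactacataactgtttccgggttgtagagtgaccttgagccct
Atp5g3: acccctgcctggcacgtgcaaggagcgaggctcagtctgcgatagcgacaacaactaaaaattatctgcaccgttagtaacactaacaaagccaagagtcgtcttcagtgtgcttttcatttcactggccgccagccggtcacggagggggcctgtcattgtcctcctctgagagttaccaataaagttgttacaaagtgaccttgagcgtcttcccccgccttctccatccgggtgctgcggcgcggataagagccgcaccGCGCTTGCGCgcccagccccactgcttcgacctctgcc
Sdha: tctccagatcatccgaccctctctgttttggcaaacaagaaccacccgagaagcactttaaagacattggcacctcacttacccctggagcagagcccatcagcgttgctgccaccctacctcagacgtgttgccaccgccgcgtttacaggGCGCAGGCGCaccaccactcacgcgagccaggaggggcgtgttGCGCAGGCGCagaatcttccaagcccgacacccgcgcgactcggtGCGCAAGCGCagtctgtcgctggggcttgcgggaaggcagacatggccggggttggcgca
Atp5s: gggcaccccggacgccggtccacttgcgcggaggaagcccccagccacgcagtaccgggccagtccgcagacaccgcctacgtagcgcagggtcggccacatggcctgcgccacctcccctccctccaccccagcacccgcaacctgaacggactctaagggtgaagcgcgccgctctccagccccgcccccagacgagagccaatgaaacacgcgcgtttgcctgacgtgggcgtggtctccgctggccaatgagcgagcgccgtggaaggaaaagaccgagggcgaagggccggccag
Sdhd has 1 NRF1 and 1 ETS match, Atp5g3 has 1 NRF1 match just after the start, Sdha has 3 NRF1 matches, and these letters are not in the Atp5s window. The window of Atp5b, which also fell at 30 h, is not printed and has a YY1 match but no NRF1 or ETS match. The printed windows thus do not show how common a motif is among members that fell.

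Members differed widely in level. Per kilobase of transcript, the mean over the 8 libraries ran up to 1192 CPM per kb for Atp5b and down to 1.93 CPM per kb for Cox7a1. Cox6b1 (780.1), Cox8a (745), Ndufa4 (646), Atp5g3 (594) and Cox4i1 (559 CPM per kb) followed Atp5b. The median member was at 126 CPM with a transcript of 669.5 bases, against 38.4 CPM and 2529.5 bases for all tested genes, so the members were abundant and short. Several subunits that the complexes need were listed at low levels, among them Atp5g2 (8.17), Atp5l (7.46) and Cox7c (16.95 CPM per kb). These have 100%, 84.8% and 53.0% of their windows of 50 bases in other annotated genes as well, so reads could have been left uncounted, and their levels are uncertain. Of 35 members with no shared window, the median level was 162 CPM per kb and 19 fell at 30 h. Of 24 members with up to 25% of windows shared, the median was 196.8 CPM per kb and 13 fell. Of 17 members with over 25% of windows shared, the median was 75.7 CPM per kb and 5 fell, so the level did not go down step by step with the share. Without DMSO 30 h replicate 1 the members that fell were 10, 6 and 2 in these classes, and without BRM014 30 h replicate 2 they were 9, 4 and 1. The part of shared sequence in the levels was not tested.

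**Figure D5:**
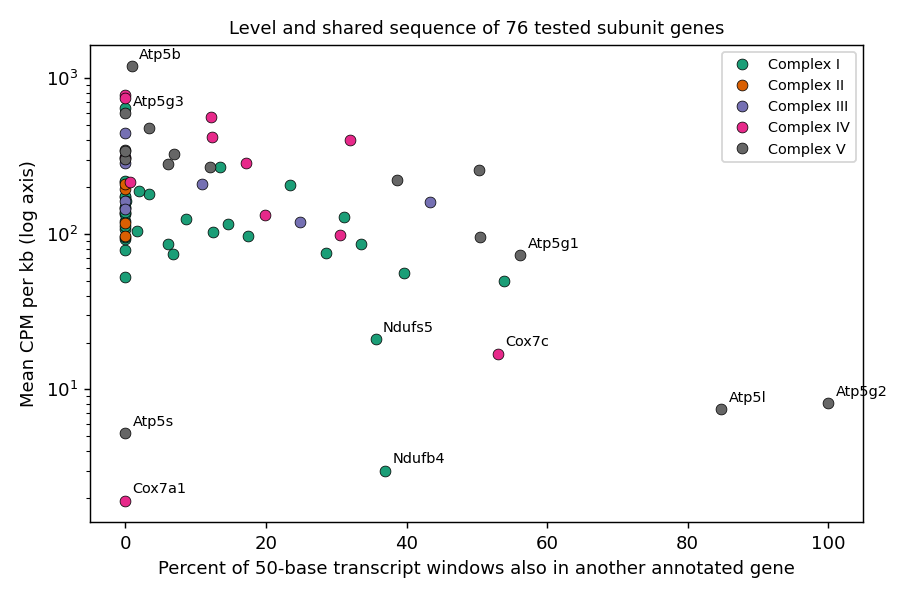
Mean CPM per kb over the 8 libraries (log axis) of the 76 tested members against the percent of 50-base windows of the transcript that also occur in another annotated gene, coloured by complex. Atp5g2 (100%) and Atp5l (84.8%) lie at the lower right, and Atp5b at the upper left.

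GC content moved with the replicate spread. Across the 76 members, the log2 fold change at 30 h had a Spearman correlation of 0.31 with transcript GC content (-0.003 across 11456 genes), given as a description, since genes share libraries. The difference between replicates 1 and 2 correlated with GC by -0.47 in BRM014 at 30 h and 0.41 in DMSO at 30 h across the members. Of the 38 members with lower GC 20 fell at 30 h, and of the 38 with higher GC 17 fell. Without DMSO 30 h replicate 1 these counts were 12 and 6, and without BRM014 30 h replicate 2 they were 9 and 5. With the GC trend of each library taken out, an alternative chosen after seeing the data, 37 of the 38 calls at 30 h were kept. Opposite-strand exon overlap was found for some members, such as Uqcrc2 (26.6%, Pdzd9), Atp5f1 (21.0%, Wdr77) and Cox4i1 (18.0%, Emc8). The kit marks strand, but the strand setting of the counting is not given in the sources used here, so reads of these partners may not be told apart.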

How the data were processed

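RNA-seq of 8 NMuMG libraries was analysed from the authors' deposited table of raw counts per gene (21240 genes with Entrez IDs and symbols). Per the labels, total RNA went into a stranded kit and gave 50-base single-end reads. The submitters' processing notes name mm9, Subread, SAMtools 0.1.19 and featureCounts; annotation and strand setting are not given in the sources used here. Counts were tested with edgeR 4.0.16 (R 4.3.3): filterByExpr (11835 genes, 55.7%), TMM, a quasi-likelihood fit of 4 group means over all 8 libraries (4 residual degrees of freedom, coefficient of variation 9.3%), 2-sided tests, Benjamini-Hochberg over all tested genes within each comparison, threshold 0.05. Standard errors are the log2 fold change over the root of the F value. Replicates correlated at 0.990 to 0.994. On simulated data, 98% of 200 genes changed in the 30 h comparison were recovered (11835 genes, 3.45% of calls false). The effect size set for these 200 genes is not given here, so recovery of effects as small as those of the members cannot be read from it. Transcript lengths, GC and shared windows came from GENCODE M21 (GRCm38), for which all 83 members matched. Promoters came from RefSeq (GRCm38.p6). Figures were drawn with matplotlib 3.10.9.

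Genes were named by smallest p within each complex and comparison, plus core subunits, paralog groups and the 2 smallest p of each list. The members and lists were chosen with earlier results of these data known. Alternatives were RLE factors, library totals, ribosomal protein scaling, no filter, at least 1 CPM in 4 libraries, DESeq2 1.42.0, limma-voom 3.58.1, only the 4 libraries compared, a replicate block, leaving out each library and, chosen after seeing the data, GC trend offsets. Coa1, Sco2, Pet100, Pet117 and the 13 genes of mitochondrial DNA on the lists are not analysed here. Values of 1 tested member are not reported here by name, and the member is counted in the totals.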

Additional observations from a re-analysis of the deposited data

Results flagged for a closer look

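The test of the difference itself, between the BRM014 effects at 30 h and 6 h, passed for 2 subunits (edgeR's quasi-likelihood test, Benjamini-Hochberg). These were 2.63% of the tested members, near the 2.59% of all tested genes called in this direction. For Sdhd the effect was lower at 30 h by a log2 difference of -0.479 (adjusted p 0.0345), with -0.38 at 30 h and 0.10 at 6 h. For Atp5g3 the difference was -0.48 (adjusted p 0.0417), with -0.44 at 30 h and 0.04 at 6 h. Both BRM014 libraries lay below both DMSO libraries at 30 h for both genes. Both calls were lost under ribosomal protein scaling (adjusted p 0.213 for Sdhd and 0.212 for Atp5g3). Each was also lost without any 1 of 6 libraries. With 1 library left out, the difference ran from -0.543 to -0.433 for Sdhd and from -0.557 to -0.409 for Atp5g3.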

How the results depend on the processing

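No called member changed direction under any alternative tried. Of the 38 calls at 30 h, 14 held with any 1 library left out and 5 in every alternative (Atp5s, Ndufa5, Ndufv2, Ndufv3 and Sdha). For the 3 calls at 6 h, the 2 of the difference, the 44 of time in DMSO and the 6 of time in BRM014, those kept with any 1 library left out were 1, 0, 7 and 3. With 1 library left out, the counts ran from 15 to 40 at 30 h, 1 to 4 at 6 h, 0 to 7 for the difference, 15 to 48 for DMSO time and 3 to 8 for BRM014 time.

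Ribosomal protein scaling gave 10 calls at 30 h, 0 for the difference (whose all-gene median moved by 0.13) and 28 for BRM014 time. It gave log2 ratios of the summed levels at 30 h of -0.055, -0.18, -0.042, -0.1 and -0.129 for complexes I to V. Library totals gave 6 calls at 6 h, 5 for the difference and a ratio of -0.318 for complex II. Without the filter there were 5 calls at 6 h, 11 for the difference and 10 for BRM014 time. For the difference, DESeq2 gave 6 and GC offsets 5. With only the 4 libraries compared, DMSO time gave 28 and BRM014 time 10. The cause of these moves was not tested.

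Ribosomal protein scaling split the calls over all genes at 30 h into 1298 lower and 3081 higher, against 2258 and 1990 with TMM. In the same order the splits were 122 and 518 against 306 and 460 for the difference, 1072 and 2384 against 2034 and 2133 for DMSO time, and 602 and 3727 against 1999 and 2318 for BRM014 time. Library totals gave 1391 and 1691 against 1709 and 1106 at 6 h, and 1424 and 2754 against 2034 and 2133 for DMSO time. The deviations of same-numbered libraries correlated at 0.122 to 0.201 in 5 of 6 pairs of groups and at 0.011 in BRM014 30 h with DMSO 6 h, and the labels do not say what a number shares, so the numbers were not taken to pair the libraries, and a pairing is not excluded. With a replicate block the counts were 47 at 30 h, 9 for the difference and 10 for BRM014 time, and all calls of the fit without it were kept. With 2 libraries a group, small changes near the threshold could not be settled. The 7 untested members had too few counts for any comparison.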
